A study of Mus musculus with 6 samples.

Results

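Chemokines and their receptors, the secreted signals and cell surface sensors that steer leukocytes, were examined in RNA of aortae from mice in which smooth muscle cells lose the gene of serum response factor, Srf. The members were every gene of the deposited count table whose symbol has the form of a CC, CXC or CX3C chemokine ligand, a CC or CXC receptor, or an atypical chemokine receptor. They numbered 59 of 55453 genes, 39 ligands and 20 receptors. Of these, 23 had at least 10 counts in each of the 5 libraries, 15 ligands and 8 receptors, and these are described with their values in every library. The 36 others comprised 6 that passed edgeR's filter on low counts but had under 10 counts in some library, 21 with fewer counts still and 9 with 0 counts throughout.

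The homozygous group (KO, 2 libraries analysed) carried the floxed Srf gene on both chromosomes together with Itga8-CreERT2, a Cre recombinase driven by Itga8, the gene of integrin alpha 8, and switched on by tamoxifen. The heterozygous group (Ctrl, 3 libraries) carried the same driver with 1 floxed Srf copy, so its recombined cells also lack a copy of Srf. Mice of either group had 5 daily intraperitoneal doses of tamoxifen at 33 mg/kg on normal chow, and aortae were collected 10 days after the last dose. Per the labels' protocols, adventitia and endothelium were stripped off and each aorta was frozen separately, which makes each library 1 animal's vessel. The labels list 6 samples, and the series' design text states that the submitters withheld 1 homozygous sample because it behaved as an outlier. The count table has no column for KO replicate 1, which was therefore not analysed here. The labels give neither age, sex nor strain.

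Chemokines bind heparan sulfate on cells and matrix and signal through G protein-coupled receptors, drawing in leukocytes along a gradient. CC ligands mostly attract monocytes, lymphocytes and eosinophils, CXC ligands attract neutrophils, lymphocytes or progenitor cells, and CX3CL1 is a membrane-bound ligand. Atypical receptors bind chemokines without Gi signalling and remove or carry them. In the vessel wall these genes are known from macrophages, endothelium and adventitial cells as well as from smooth muscle cells exposed to cytokines.

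Promoters are printed for 5 members: Cxcl12 and Ccr2, which stood higher in KO with no match to either motif searched, Ccl9, which stood higher with a match, and Cxcl1 and Cxcl10, which hold matches and whose groups overlapped. Each is the RefSeq window of 250 bases before to 50 bases after the transcription start on GRCm38.p6, written 5′ to 3′ on the gene's strand, and capitals mark matches to the NF-kB motif on either strand. The windows lie at chr6:117168285-117168584 (plus strand), chr9:124101933-124102232 (plus), chr11:83578587-83578886 (minus), chr5:90890995-90891294 (plus) and chr5:92348840-92349139 (minus).
Cxcl12: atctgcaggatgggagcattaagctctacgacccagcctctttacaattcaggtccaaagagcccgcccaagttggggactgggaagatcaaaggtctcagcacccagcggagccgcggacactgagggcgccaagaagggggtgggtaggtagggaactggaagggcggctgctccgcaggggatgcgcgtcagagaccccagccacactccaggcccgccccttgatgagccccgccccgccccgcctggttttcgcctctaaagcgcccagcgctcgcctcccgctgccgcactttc
Ccr2: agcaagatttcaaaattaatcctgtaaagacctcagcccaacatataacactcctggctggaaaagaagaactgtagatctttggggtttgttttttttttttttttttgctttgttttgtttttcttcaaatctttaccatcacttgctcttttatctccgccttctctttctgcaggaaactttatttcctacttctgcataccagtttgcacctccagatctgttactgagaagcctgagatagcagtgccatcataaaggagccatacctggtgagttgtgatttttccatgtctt
Ccl9: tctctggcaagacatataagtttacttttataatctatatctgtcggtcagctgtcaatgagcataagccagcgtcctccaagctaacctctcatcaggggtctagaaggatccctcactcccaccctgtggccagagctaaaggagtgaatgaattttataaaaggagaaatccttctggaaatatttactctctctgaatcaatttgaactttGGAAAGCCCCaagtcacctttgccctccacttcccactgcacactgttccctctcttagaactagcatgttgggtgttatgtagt
Cxcl1: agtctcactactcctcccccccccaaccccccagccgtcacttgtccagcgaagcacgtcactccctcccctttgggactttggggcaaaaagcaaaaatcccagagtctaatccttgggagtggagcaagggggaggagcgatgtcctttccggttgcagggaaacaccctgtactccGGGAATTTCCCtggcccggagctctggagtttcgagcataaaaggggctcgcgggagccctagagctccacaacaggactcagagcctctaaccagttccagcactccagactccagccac
Cxcl10: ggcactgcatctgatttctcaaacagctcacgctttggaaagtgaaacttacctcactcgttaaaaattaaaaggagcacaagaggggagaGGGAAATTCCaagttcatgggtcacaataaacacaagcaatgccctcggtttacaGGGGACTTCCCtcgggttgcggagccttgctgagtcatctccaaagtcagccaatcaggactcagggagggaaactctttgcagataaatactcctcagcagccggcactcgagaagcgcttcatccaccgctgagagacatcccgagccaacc

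RefSeq windows were found for 42 of the 59 members. Ccl11, Ccl2 and Ccl7 were among those without one. The CArG box, the binding motif of serum response factor, matched in 0 of the 42, against 1.81% of the 27025 genes with such a window. At so low a share, 0 matches among 42 genes tells little. The NF-kB motif, bound by the transcription factor that switches on many inflammatory genes, matched in 12 of the 42 (28.6%), against 9.55% of all genes. These 12 were Cxcl1, Cxcl2 and Cxcl3, neighbours on chromosome 5, and Cxcl10, Ccl9, Ccr1, Ackr2, Ccl27a, Ccl1, Ccl20, Ccr3 and Ccr6. Of them, Cxcl3, Ccl1, Ccl20 and Ccr3 had 0 counts in every library. In Cxcl1 the capitals are 2 overlapping matches, and in Cxcl10 they are 3, of which 2 overlap.

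More of the 23 members stood higher in KO than among genes at large, although no member passed the test across all genes. With edgeR's quasi-likelihood test adjusted over 18192 genes, 0 members were called higher and 0 lower, as for all genes (0.0% in either direction). At an unadjusted p under 0.05, edgeR gave 11 of 23 higher (47.8%) and 0 lower, against 8.87% higher and 7.13% lower among the 16374 genes with at least 10 counts in every library. DESeq2, adjusted over all genes, called 4 of 22 members with a value higher (18.2%) and 0 lower, against 3.3% higher and 2.63% lower. Among them were Cxcl12, Ccl11 and Ccr2. KO libraries lay wholly above Ctrl libraries for 12 of the 23 members (52.2%, against 17.0% of all such genes) and wholly below for 1 (4.35%, against 19.2%). The log2 fold change was positive for 19 of the 23 (82.6%, against 45.7%) and negative for 4 (17.4%, against 54.3%). The median log2 fold change of the 23 was 0.62, against -0.02 for genes at that count level. DESeq2's calls moved with the libraries used, for members and for all genes, of which 524 were called higher with every library. It called 1 member and 325 genes higher without Ctrl replicate 1, and 2 members and 621 genes without Ctrl replicate 2. Without Ctrl replicate 3 it called 4 members (Ccr2, Ccl11, Ccl9 and Ccl6) and 397 genes. It called 0 members without either KO library, with 147 genes left without KO replicate 2 and 65 without KO replicate 3. The count at an edgeR unadjusted p under 0.05 was 6 of 23 without KO replicate 3 (26.1%, against 4.90% of genes) and 11 of 23 without Ctrl replicate 3 (47.8%, against 9.23%).

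**Figure D1:**
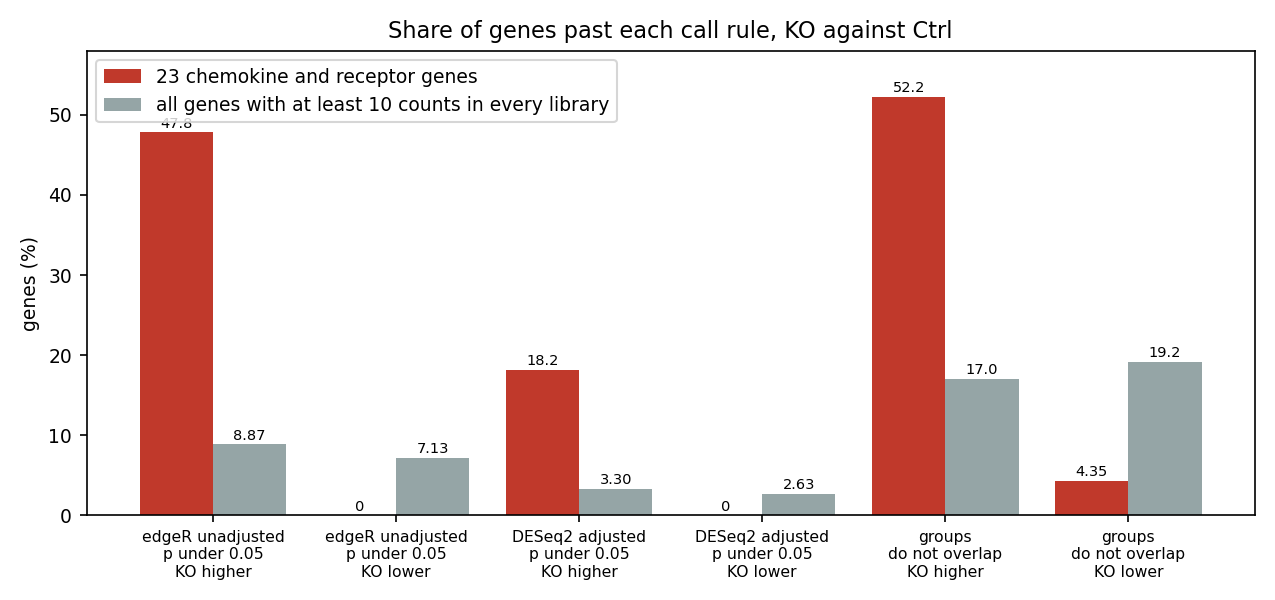
Bars give the percentage of genes past each call rule, for the 23 chemokine and receptor genes (red) and for all genes with at least 10 counts in every library (grey). The members' bar is above the grey one for each of the 3 rules plotted in the direction of higher in KO (47.8% against 8.87% at an unadjusted edgeR p under 0.05) and below it in the direction of lower.

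Smooth muscle genes identified the tissue. Levels are given in CPM, the count of a gene divided by the library's total and rescaled by TMM, which adjusts for differences in composition. Of 9 smooth muscle markers, 8 were lower in KO at an edgeR unadjusted p under 0.05, against 6.75% of all genes tested. Their sum was 15241 and 14841 CPM in KO and 25770, 26515 and 25208 CPM in Ctrl. Srf itself stood at 45.0 and 38.6 CPM in KO and at 56.1, 64.4 and 68.3 CPM in Ctrl, with an edgeR adjusted p of 0.115 and a DESeq2 adjusted p of 0.00371. Endothelial markers were still present after stripping, at 1197 and 462 CPM in KO and 842, 1067 and 811 CPM in Ctrl. Ctrl replicate 3 stood away from the other 4 libraries along a main axis of variation carrying 51.6% of the variance, and it was the lowest library for 9 of the 23 members (39.1%, against 25.0% of genes at that count level). Without it the members with KO wholly above Ctrl numbered 14 of 23 (against 23.3% of all genes at that count level) and those wholly below 2 (against 25.7%), and the log2 fold changes of Cxcr4 and Ccl24 changed sign.

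Cxcl12, which attracts and retains progenitor cells and lymphocytes through Cxcr4, had the highest mean level of the chemokines per kilobase of exon in either group (GRCm38 chromosome 6, 117168535 to 117181367). It stood at 131 and 150 CPM in KO and at 115, 96.9 and 84.1 CPM in Ctrl. Both KO libraries lay above all Ctrl libraries, and Cxcl12 made up between 39.3% and 49.1% of the summed CPM of all 59 members in each library. The mean was 141 ± 13.0 CPM in KO (SD, n = 2) and 98.7 ± 15.5 CPM in Ctrl (SD, n = 3). Its log2 fold change was 0.51 (SE 0.144), with an edgeR adjusted p of 0.173 and a DESeq2 adjusted p of 0.0381. Leaving out each library in turn moved the log2 fold change between 0.41 and 0.64.

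Ackr3, the atypical receptor that takes up Cxcl12, had the highest mean level of the receptors per kilobase in either group. It stood at 56.2 and 48.2 CPM in KO and at 34.8, 46.1 and 29.2 CPM in Ctrl. The groups did not overlap, though KO replicate 3 and Ctrl replicate 2 were close. Its log2 fold change was 0.51 (SE 0.187, edgeR adjusted p = 0.262). Cxcr4, the signalling receptor for Cxcl12, was far scarcer, at 0.707 and 1.23 CPM in KO and 0.892, 0.890 and 1.71 CPM in Ctrl. Its groups overlapped, with a log2 fold change of -0.24 (SE 0.417) that changed sign without Ctrl replicate 3 (0.15) or without KO replicate 2 (0.096). Per kilobase of exon, Cxcl12 averaged 17.2 CPM in KO and 12.1 CPM in Ctrl, Ackr3 15.6 CPM in KO and 11.0 CPM in Ctrl, and Cxcr4 0.535 CPM in KO and 0.644 CPM in Ctrl.

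**Figure D2:**
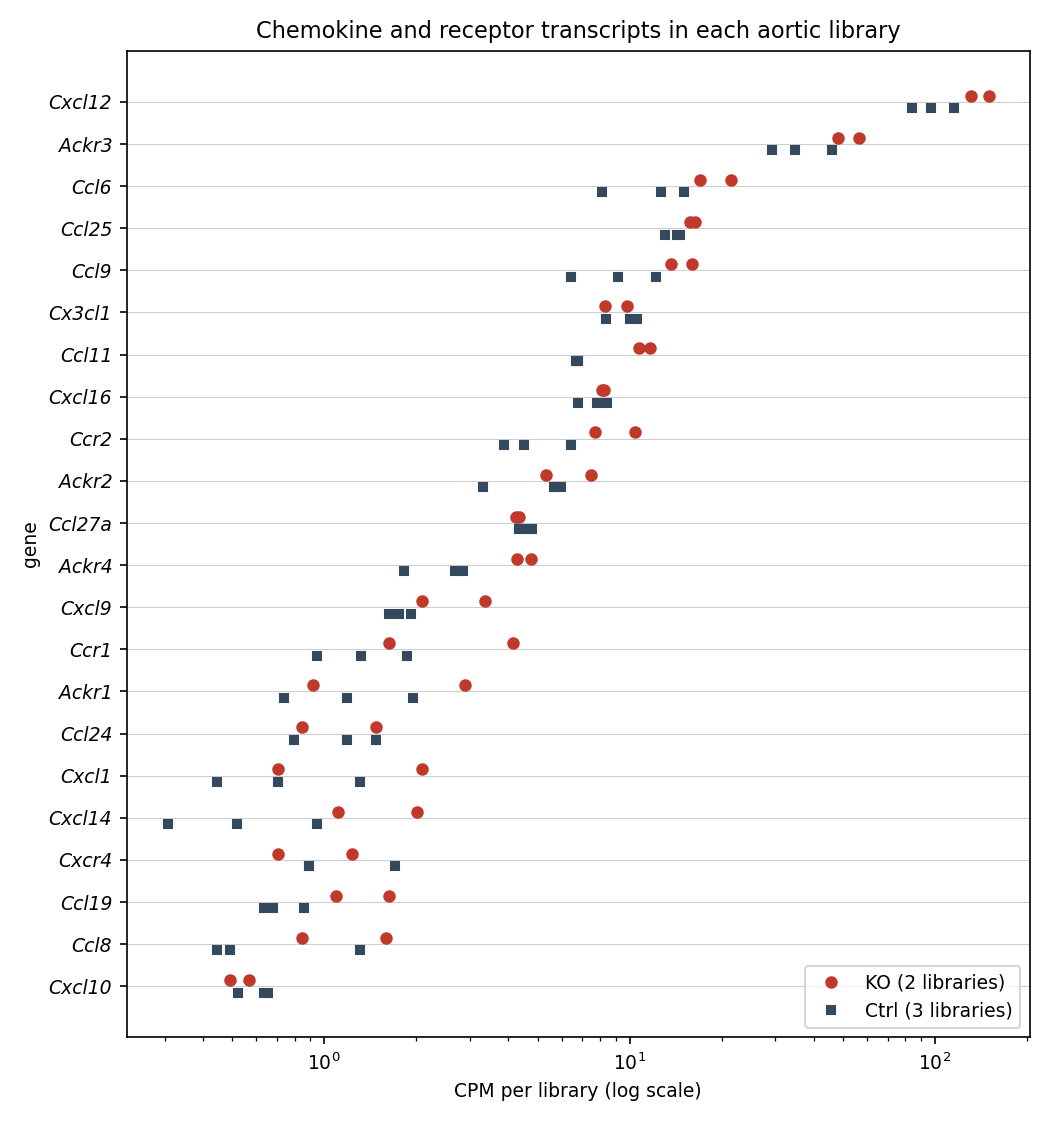
CPM of 22 of the 23 members on a log scale in each library, KO (2 red circles, upper of each row) and Ctrl (3 dark squares, lower of each row). Cxcl12 leads at 84.1 to 150 CPM, and for 11 of the genes shown both circles lie right of all squares.

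Among CC ligands, DESeq2 called Ccl11, eotaxin, which attracts eosinophils through Ccr3, higher in KO (chromosome 11, 82057823 to 82062955). Ccl11 stood at 11.7 and 10.8 CPM in KO and at 6.77, 6.79 and 6.68 CPM in Ctrl. The Ctrl libraries were nearly equal, and both KO libraries were well above them. The log2 fold change was 0.73 (SE 0.125), with an edgeR adjusted p of 0.104 and a DESeq2 adjusted p of 0.00114. Omitting any single library gave log2 fold changes of 0.67 to 0.79. Ccr3, its known receptor, had 0 counts in every library. A count of 0 allows up to 3 counts, or 0.0921 to 0.106 CPM in KO and 0.0890 to 0.119 CPM in Ctrl libraries, as counting error alone.

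Ccl11 lies in a group of 6 chemokine genes on chromosome 11 (82035571 to 82305690) with Ccl2, Ccl7, Ccl12, Ccl8 and Ccl1. All but Ccl1, which had 0 counts, were tested, and all 5 had positive log2 fold changes, from 0.61 to 1.46. Ccl2, the main monocyte attractant acting on Ccr2, had 37 and 26 counts in KO and 13, 9 and 14 counts in Ctrl, or 1.31 and 0.799 CPM in KO and 0.400, 0.267 and 0.557 CPM in Ctrl. Ccl7, a second Ccr2 ligand, had 39 and 17 counts in KO and 12, 10 and 9 counts in Ctrl. Both fell just short of 10 counts in every library, with a lowest count of 9, whereas Cxcl14, at a lowest count of 10, was just inside. The groups did not overlap for either, and the log2 fold changes were 1.38 (SE 0.406, edgeR adjusted p = 0.184) for Ccl2 and 1.46 (SE 0.474, edgeR adjusted p = 0.216) for Ccl7. Without KO replicate 2 the log2 fold change of Ccl7 was 0.61 and that of Ccl2 was 0.99.

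Ccl12, another Ccr2 ligand of the mouse, stood at 0.460 and 0.584 CPM in KO and at 0.215, 0.415 and 0.398 CPM in Ctrl, without overlap. Its log2 fold change was 0.61 (SE 0.409, edgeR adjusted p = 0.523). Ccl8, which in the mouse acts on Ccr8, stood at 0.848 and 1.6 CPM in KO and at 0.492, 0.445 and 1.31 CPM in Ctrl. Ctrl replicate 3 lay between the KO libraries, so the groups overlapped, and the log2 fold change was 0.75 (SE 0.531, edgeR adjusted p = 0.549). It was 1.40 without Ctrl replicate 3 and 0.22 without KO replicate 3.

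Ccl6 and Ccl9, mouse chemokines made by macrophages and other myeloid cells and acting on Ccr1, form part of a second group on chromosome 11 (83525778 to 83664683). Ccl6 stood at 17.0 and 21.5 CPM in KO and at 8.12, 12.7 and 15.1 CPM in Ctrl. Ccl9 stood at 13.6 and 16.0 CPM in KO and at 6.43, 9.13 and 12.2 CPM in Ctrl. Both genes gave the same order of the 5 libraries, lowest in Ctrl replicate 1 and highest in KO replicate 3, and neither overlapped between groups. Each had a log2 fold change of 0.69 (SE 0.249 for Ccl6 and 0.248 for Ccl9) with an edgeR adjusted p of 0.254. Their neighbours were scarce: Ccl5, a T cell and macrophage product, was at 0.141 and 0.430 CPM in KO and 0.523, 0.415 and 0.477 CPM in Ctrl, overlapping, and Ccl3 and Ccl4 had at most 3 counts in any library.

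Ccl19, which guides lymphocytes and dendritic cells through Ccr7, stood at 1.10 and 1.63 CPM in KO and at 0.861, 0.682 and 0.637 CPM in Ctrl, without overlap. Its log2 fold change was 0.90 (SE 0.306, edgeR adjusted p = 0.232). Its level is uncertain, because 39.3% of the 100-base words of its transcripts also occur in transcripts of other genes, mainly Ccl19 pseudogenes. Ccr7 itself had 1 and 10 counts in KO and 0, 5 and 3 counts in Ctrl.

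Ccl25, Ccl27a and Ccl24 differed little. Ccl25, known for drawing T cells to thymus and gut through Ccr9, stood at 16.4 and 15.8 CPM in KO and at 14.7, 13.0 and 14.3 CPM in Ctrl, not overlapping but only 0.20 apart on the log2 scale (SE 0.108, edgeR adjusted p = 0.437). Ccl27a, a skin-associated ligand of Ccr10, was the single member lower in KO without overlap, at 4.24 and 4.33 CPM in KO and 4.80, 4.60 and 4.34 CPM in Ctrl. Its log2 fold change was -0.10 (SE 0.161, edgeR adjusted p = 0.826), and 26.5% of its 100-base words recur in copies such as Ccl27b. Ccl24, a further Ccr3 ligand, stood at 0.848 and 1.47 CPM in KO and at 1.48, 1.19 and 0.796 CPM in Ctrl, overlapping fully. Its log2 fold change of 0.01 (SE 0.371) was -0.17 without Ctrl replicate 3 and -0.45 without KO replicate 3. Ccl28, a mucosal ligand of Ccr10 and Ccr3, had under 10 counts in 2 Ctrl libraries and stood at 0.601 and 0.553 CPM in KO and at 0.277, 0.415 and 0.278 CPM in Ctrl.

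CXC ligands other than Cxcl12 stood far below it in CPM and were mixed in direction. Cxcl14, which attracts monocytes and dendritic cells, stood at 2.01 and 1.11 CPM in KO and at 0.308, 0.949 and 0.517 CPM in Ctrl. KO replicate 3 was only slightly above Ctrl replicate 2, and the log2 fold change was 1.37 (SE 0.488, edgeR adjusted p = 0.247), or 0.89 without KO replicate 2. Cxcl9, an interferon-gamma-induced ligand of Cxcr3, stood at 2.09 and 3.35 CPM in KO and at 1.75, 1.93 and 1.63 CPM in Ctrl. Its groups did not overlap, with a log2 fold change of 0.62 (SE 0.264, edgeR adjusted p = 0.321) that was 0.23 without KO replicate 3. Its neighbour Cxcl10, also a Cxcr3 ligand induced by interferons, stood at 0.566 and 0.491 CPM in KO and at 0.523, 0.652 and 0.637 CPM in Ctrl. Cxcl10 overlapped between groups, with a log2 fold change of -0.19 (SE 0.317).

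Cxcl1, a neutrophil attractant acting on Cxcr2, was decided by a single library. It stood at 2.09 and 0.706 CPM in KO and at 0.707, 0.445 and 1.31 CPM in Ctrl, so that KO replicate 2 was high and KO replicate 3 lay within the Ctrl range. The log2 fold change of 0.78 (SE 0.577) became -0.19 without KO replicate 2. Cxcl16, a membrane-bound ligand of Cxcr6, stood at 8.24 and 8.11 CPM in KO and at 8.43, 7.83 and 6.76 CPM in Ctrl. Cx3cl1, the ligand of Cx3cr1, stood at 9.83 and 8.32 CPM in KO and at 9.99, 10.6 and 8.35 CPM in Ctrl. Groups overlapped for both, with log2 fold changes of 0.09 (SE 0.149) for Cxcl16 and -0.09 (SE 0.156) for Cx3cl1. Of the exon bases of Cxcl16, 18.3% overlap Zmynd15 on the opposite strand, and whether the counting used strand is not given in the sources used here. Cxcl13, a B cell attractant, had 13 counts in each KO library and 6, 6 and 12 counts in Ctrl.

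**Figure D3:**
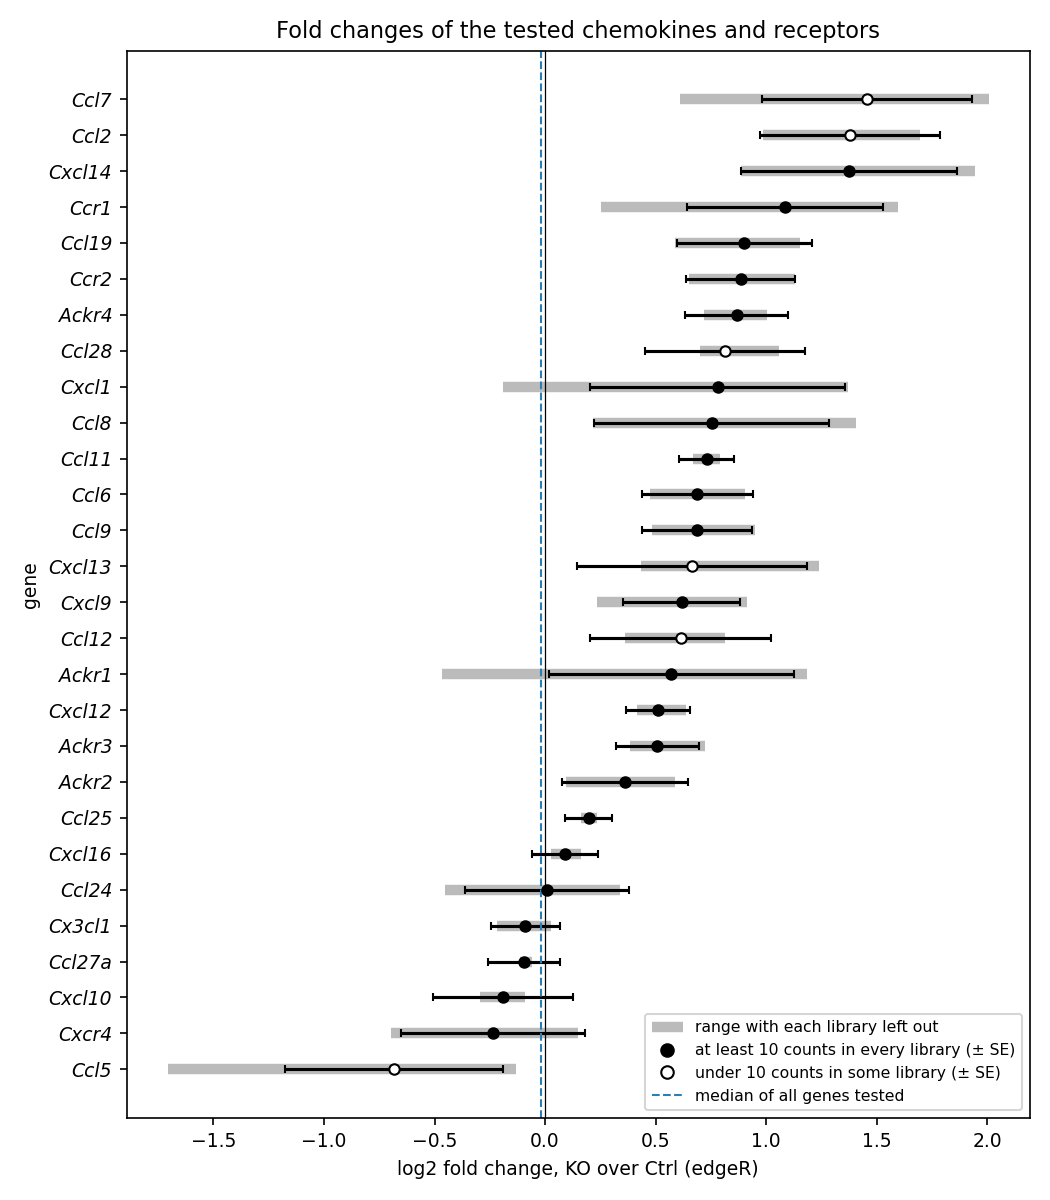
Log2 fold changes, KO over Ctrl, of 28 of the 29 members that edgeR tested, with their SE, and in grey the range when each library was left out in turn. Filled points had at least 10 counts in every library. Most points lie right of the dashed median of all genes tested (-0.02), while the grey ranges of Cxcl1, Ackr1, Ccl24, Cx3cl1 and Cxcr4 cross 0.

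Of the receptors of monocytes and macrophages, Ccr2, the receptor of classical monocytes for Ccl2, Ccl7 and Ccl12 (chromosome 9, 124101950 to 124113557), stood at 7.71 and 10.4 CPM in KO and at 3.87, 4.51 and 6.41 CPM in Ctrl. KO replicate 3 was the highest library, and the groups did not overlap. Ccr2 averaged 9.06 ± 1.91 CPM in KO (SD, n = 2) and 4.93 ± 1.32 CPM in Ctrl (SD, n = 3). The log2 fold change was 0.89 (SE 0.247, edgeR adjusted p = 0.171, DESeq2 adjusted p = 0.0333). Omitting any single library gave log2 fold changes of 0.65 to 1.13.

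Ccr1, the receptor for Ccl6 and Ccl9, lies on chromosome 9 (123962124 to 123968692), near Ccr9, Cxcr6, Ccr3 and Ccr2. It stood at 1.63 and 4.15 CPM in KO and at 1.32, 0.949 and 1.87 CPM in Ctrl. KO replicate 3 was far above the rest while KO replicate 2 lay within the Ctrl range, and the log2 fold change of 1.09 (SE 0.444, edgeR adjusted p = 0.302) was 0.25 without KO replicate 3. Cxcr6, a receptor of T and NK cells, had 7 and 17 counts in KO and 6, 1 and 4 counts in Ctrl, and was not tested.

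Of the other atypical receptors, Ackr4, which takes up Ccl19, Ccl21 and Ccl25, stood at 4.74 and 4.27 CPM in KO and at 2.68, 2.85 and 1.83 CPM in Ctrl. Its groups did not overlap, and the log2 fold change was 0.87 (SE 0.233), with an edgeR adjusted p of 0.160 and a DESeq2 adjusted p of 0.0507. Ackr2, a scavenger of inflammatory CC chemokines, stood at 7.46 and 5.31 CPM in KO and at 3.32, 5.63 and 5.97 CPM in Ctrl, overlapping, with a log2 fold change of 0.36 (SE 0.285). Ackr1, known from venular endothelium and red cells, stood at 2.90 and 0.921 CPM in KO and at 0.738, 1.19 and 1.95 CPM in Ctrl, and its log2 fold change of 0.57 (SE 0.555) became -0.47 without KO replicate 2. Summed endothelial markers were likewise high in KO replicate 2 (1197 CPM) and low in KO replicate 3 (462 CPM). Erythrocyte markers summed to 23.9 and 28.9 CPM in KO and to 37.9, 297 and 87.6 CPM in Ctrl. Of these erythrocyte markers, 5 of 5 were lower in KO at an edgeR unadjusted p under 0.05, against 6.75% of all genes tested. The part of either cell type in the Ackr1 values was not tested. The level of Ackr1 is also uncertain because 25.7% of its exon bases overlap Cadm3 on the same strand.

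Several detected ligands had a known receptor with few or no counts in these libraries. Ccr9, the receptor for Ccl25, had 2 and 2 counts in KO and 4, 1 and 1 in Ctrl. Ccr10, the receptor for Ccl27a, had 6 and 8 counts in KO and 0, 8 and 0 in Ctrl. Cxcr3, the receptor for Cxcl9 and Cxcl10, had 11 and 8 counts in KO and 4, 8 and 0 in Ctrl. Cxcr2, the neutrophil receptor for Cxcl1, had 3 and 0 counts in KO and 0, 0 and 17 in Ctrl, and the 17 came from Ctrl replicate 3. Summed neutrophil markers were highest in that same library, at 12.3 CPM, against 1.54 and 1.51 CPM in the other Ctrl libraries and 3.29 and 2.30 CPM in KO. Besides Ccr3, 8 members had 0 counts throughout: Cxcr1, Ccl1, Ccl20, Ccl21a, Ccl21c, Ccl27, Ccl27b and Cxcl3. For Ccl21a and Ccl27b, 50.3% and 97.9% of the 100-base words are shared with other genes, and their counts of 0 are uncertain for that reason. The remaining members had at most 8 counts in any library (Ccl3, Ccl4, Ccl17, Ccl21b, Ccl22, Ccl26, Cxcl2, Cxcl5, Cxcl11, Cxcl15, Cxcl17, Ccr4, Ccr6, Ccr8 and Cxcr5), of which Ccl22, a dendritic cell product, had 8 of its 10 counts in KO replicate 3.

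Markers of macrophages were also higher in KO. Of 12 macrophage markers, 9 were higher in KO at an edgeR unadjusted p under 0.05 and 0 lower. The shares over all genes tested were 9.04% higher and 6.75% lower. None of the 12 was at 0. Their summed level was 496 and 638 CPM in KO and 344, 304 and 424 CPM in Ctrl. Ctrl replicate 3, the highest Ctrl library in that sum, was the lowest library for 9 of the 23 members (39.1%, against 25.0% of genes at that count level). Other members, among them Ccr2, Ccl6 and Ccl9, had their highest Ctrl value in that library. Lyz2, lysozyme, had the highest CPM of the macrophage markers, at 125 and 166 CPM in KO and 78.4, 75.1 and 95.1 CPM in Ctrl. In bulk RNA, more cells of a type and more RNA per cell cannot be told apart. Per 1000 CPM of summed macrophage markers, Ccr2 stood at 15.5 and 16.3 CPM in KO and at 11.3, 14.8 and 15.1 CPM in Ctrl. On that scale Ccr2, at 1.16 times its Ctrl mean, was the 1 member of 23 with KO wholly above Ctrl, 4 lay wholly below (Cxcr4, Ccl27a, Cxcl10 and Ccl25) and 18 overlapped. Among those 18 were Cxcl12, at 0.88 times its Ctrl mean, and Ccl11, at 1.05 times. Shares of all genes on that scale were not computed, so these counts do not set the members apart from other genes. The marker sum was itself higher in both KO libraries, so a gene with unchanged CPM stands lower in KO on that scale. Ccl6 overlapped, at 34.3 and 33.7 CPM in KO and 23.6, 41.7 and 35.7 CPM in Ctrl per 1000 CPM of those markers, and Ccl9 stood at 27.5 and 25.1 CPM in KO and 18.7, 30.0 and 28.7 CPM in Ctrl.

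Markers of adventitial fibroblasts, a known source of Cxcl12 and Ccl11, were summed at 2646 and 2952 CPM in KO and at 2669, 2290 and 1932 CPM in Ctrl. Of these 10 markers, 3 were higher in KO at an edgeR unadjusted p under 0.05, 0 lower, and none was at 0. The shares over all genes tested were 9.04% higher and 6.75% lower. Per 1000 CPM of fibroblast markers, Cxcl12 stood at 49.7 and 50.8 CPM in KO and at 43.1, 42.3 and 43.6 CPM in Ctrl, and Ccl11 at 4.41 and 3.64 CPM in KO and at 2.54, 2.97 and 3.46 CPM in Ctrl. KO lay wholly above Ctrl on that scale for 5 of the 23 members, among them Cxcl12 (1.17 times its Ctrl mean, against 1.42 times in CPM), Ccl11, Ackr4 and Ccl19. It lay wholly below for 3 (Ccl27a, Cx3cl1 and Cxcl16), and 15 overlapped. Here too, shares of all genes on that scale were not computed, so these counts do not set the members apart from other genes. Ackr3 was among those overlapping, at 21.2 and 16.3 CPM in KO and 13.0, 20.1 and 15.1 CPM in Ctrl. Adipocyte markers summed to 2722 and 2831 CPM in KO and to 1332, 1991 and 1206 CPM in Ctrl, with 7 of 8 higher at an unadjusted p under 0.05. Skeletal muscle markers summed to 711 and 2015 CPM in KO and to 401, 228 and 7.84 CPM in Ctrl. Ccl19 and Ackr4 are known from lymphoid and lymphatic stroma, whose markers summed to 110 and 92.9 CPM in KO and to 61.6, 72.0 and 67.4 CPM in Ctrl, with Glycam1 at 0. Of 5 tested, Prox1 and Lyve1 were higher at an unadjusted p under 0.05. Dendritic cell markers summed to 52.0 and 47.3 CPM in KO and to 40.3, 42.4 and 38.2 CPM in Ctrl, with 2 of 7 tested higher. The part of these cells and tissues, macrophages and fibroblasts included, in the chemokine values was not tested. T and NK cell markers were near the limit of detection, with a sum over 10 genes of 1.59 and 2.86 CPM in KO and 1.48, 1.78 and 2.39 CPM in Ctrl.

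**Figure D4:**
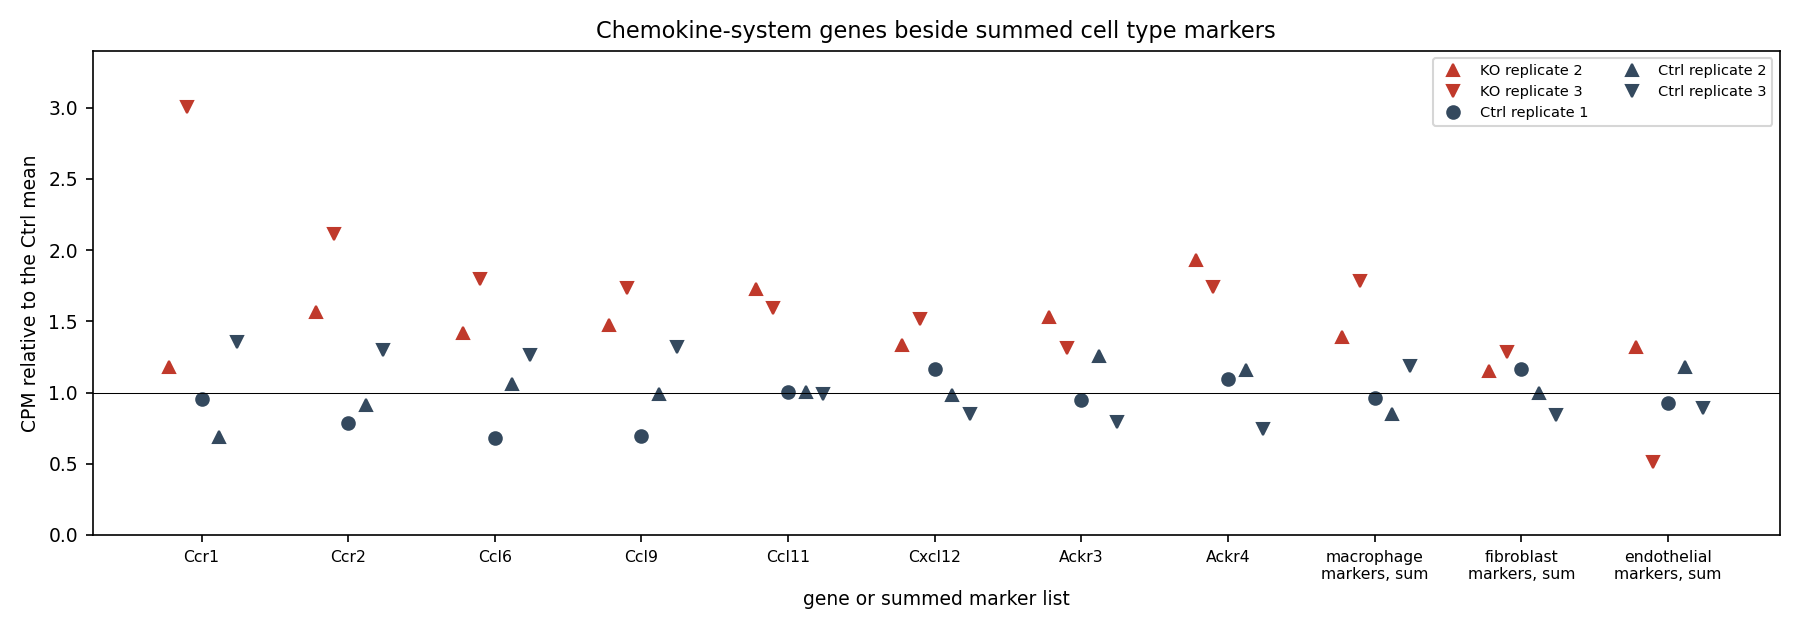
CPM of 8 members and of 3 summed marker lists, each divided by its Ctrl mean, in the KO libraries (red) and Ctrl libraries (dark), with marker shapes for the replicate numbers. Macrophage markers sit above the Ctrl libraries in both KO libraries, as Ccr2, Ccl6, Ccl9, Ccl11, Cxcl12, Ackr3 and Ackr4 do. So do the summed adipocyte, skeletal muscle, lymphatic and dendritic cell markers, which are not plotted. Ccr1 and the fibroblast markers overlap between groups, and endothelial markers split the KO libraries.

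Other genes of the chemokine system outside the symbol rule moved in either direction. Of 11 listed, 8 were tested, 3 with a positive and 5 with a negative log2 fold change and a median of -0.06. At an edgeR unadjusted p under 0.05 the count was 3 higher and 0 lower, against 9.04% higher and 6.75% lower of all genes tested. Cx3cr1, the receptor of patrolling monocytes and resident macrophages for Cx3cl1, stood at 1.73 and 4.48 CPM in KO and at 1.51, 0.919 and 0.676 CPM in Ctrl. KO replicate 3 was far above KO replicate 2, and the log2 fold change of 1.58 (SE 0.472, edgeR adjusted p = 0.191, DESeq2 adjusted p = 0.0492) was 0.73 without KO replicate 3. Pf4, platelet factor 4, a CXC chemokine of platelets and also of macrophages, stood at 8.24 and 9.71 CPM in KO and at 5.81, 5.01 and 6.21 CPM in Ctrl, with a log2 fold change of 0.66 (SE 0.162, edgeR adjusted p = 0.140, DESeq2 adjusted p = 0.0251). Cd74, a receptor for the cytokine Mif and a chaperone of MHC class II, had a log2 fold change of 0.68 (SE 0.232), or 0.26 without KO replicate 3. Rarres2, the precursor of chemerin and the highest in CPM of the list, had -0.10 (SE 0.112), with overlapping groups. Ccrl2, an atypical receptor that binds chemerin, stood at 6.22 and 5.50 CPM in KO and at 6.55, 10.0 and 7.84 CPM in Ctrl, wholly below, with a log2 fold change of -0.48 (SE 0.209, edgeR adjusted p = 0.334). It was named after its values were seen.

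Genes that relay chemokine receptor signals had a median log2 fold change of 0.01 over 25 tested. At an edgeR unadjusted p under 0.05, 8 were higher and 2 lower, against 9.04% higher and 6.75% lower of all genes tested. The 4 with the lowest p were Prex1 and Dock2, activators of Rac in migrating leukocytes, Gng2, a G protein gamma subunit, and Grk3, a kinase that desensitizes receptors. Their log2 fold changes were 0.51 (SE 0.119) for Prex1, 0.66 (SE 0.169) for Dock2, 0.71 (SE 0.173) for Gng2 and 0.54 (SE 0.130) for Grk3, with edgeR adjusted p of 0.131 to 0.148 and DESeq2 adjusted p of 0.0196 to 0.0315. Gnb1, a G protein beta subunit and the highest in CPM of the list, had -0.09 (SE 0.0959).

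Inducers of chemokine transcription showed little movement as a list. The median log2 fold change of 25 tested genes of the NF-kB and cytokine list was -0.01, with 2 higher and 0 lower at an edgeR unadjusted p under 0.05, near the 9.04% higher of all genes tested. Nfkbie, an inhibitor of NF-kB, had a log2 fold change of 0.52 (SE 0.198, edgeR adjusted p = 0.275). Nfkb1, a subunit of NF-kB and the highest in CPM of the list, had -0.15 (SE 0.0898), with both KO libraries below all Ctrl libraries.

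Leukocyte adhesion genes had a median of -0.03 over 12 tested, with 2 higher and 0 lower at an edgeR unadjusted p under 0.05. The shares over all genes tested were 9.04% higher and 6.75% lower. The 2 higher at an edgeR unadjusted p under 0.05 were integrins of leukocytes: Itgb2, the shared beta 2 chain, at 0.69 (SE 0.161, DESeq2 adjusted p = 0.0172), and Itgam, its myeloid partner, at 0.85 (SE 0.348). Vcam1, the vessel wall ligand of leukocyte integrin alpha 4 beta 1, overlapped, at 61.4 and 32.3 CPM in KO and 50.2, 46.3 and 60.0 CPM in Ctrl. Genes that hold or cleave chemokines had a median of -0.06 over 13 tested. At an unadjusted p under 0.05, 1 was higher and 2 lower, against the same 9.04% and 6.75% of all genes tested. Ext1, an enzyme that builds heparan sulfate, had -0.49 (SE 0.127, edgeR adjusted p = 0.150, DESeq2 adjusted p = 0.0170), and Sdc4, a heparan sulfate proteoglycan of the cell surface, had -0.32 (SE 0.123). Sdc3, a related proteoglycan, had 0.43 (SE 0.139), and Ndst1, a heparan sulfate sulfotransferase and the highest in CPM of the list, had -0.06 (SE 0.0885). Over these 5 lists DESeq2 called 9 tested genes in all, 8 higher and 1 lower (Ext1), against 3.34% higher and 2.62% lower of all genes tested.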

How the data were processed

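Per the labels' protocols, libraries of aortic RNA were made with the TruSeq Stranded mRNA kit. The authors deposited whole-number read counts per gene symbol, 1 column per library, and the submitters' processing notes name fastp 0.20.0, STAR 2.7.0f, featureCounts of Subread 1.6.4 and GRCm38. Which annotation release, strand setting and rule for multiply mapped reads applied is not given in the sources used here. Total counts were 27685188 and 31873243 in KO and 32142058, 34311855 and 26177821 in Ctrl.

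In R 4.3.3, edgeR 4.0.16 filtered the counts (filterByExpr), scaled them by TMM and fitted the 18192 remaining genes with group as the only factor. Its quasi-likelihood p-values underwent Benjamini-Hochberg adjustment and calls were made below 0.05. The edgeR step was tested on simulated data. Values are CPM after TMM scaling, and log2 fold changes are KO over Ctrl with their standard error (SE). The alternatives were DESeq2 1.42.0, limma-voom (limma 3.58.1), RLE size factors, dropping or tightening the low-count filter, blocking on replicate number, adding the description numbers as a factor, and omitting single libraries. The p-values measure the spread between these 5 libraries.

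Positions, exon lengths and transcripts came from GENCODE mouse release M21 on GRCm38, which holds 57 of the 59 members, and promoters from RefSeq. Motifs were searched on both strands. Genes with at least 10 counts in every library were named. From the pathway lists, up to 4 genes with the lowest edgeR unadjusted p under 0.05 and the gene with the highest CPM were named. The members and lists were chosen with earlier results of these data known, and the ratios to summed markers were chosen after values were seen. Some genes that the counts include are not reported here.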

Additional observations from a re-analysis of the deposited data

How the results depend on the processing

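Across all genes, edgeR called 0 higher and 0 lower. DESeq2 called 524 higher and 411 lower, and edgeR with no low-count filter 982 higher and 432 lower, while limma-voom called 1 lower. Among the members, DESeq2 called 4 of 22 with a value higher (18.2%), against 3.3% of genes with at least 10 counts in every library. With no low-count filter, edgeR called 10 of the 23 members higher, and the share of such genes was not computed for those calls. At an unadjusted p under 0.05 that edgeR fit had 12 of 23 members higher (52.2%), against 11.3% of such genes. Adding the description numbers as a factor gave 8 genes called higher and 1 lower, and a member median of 0.28. The group contrast of that fit rests on KO replicate 2 against Ctrl replicate 3 alone, with 1 residual degree of freedom. With that term, 6 members were higher and 1 lower at an edgeR unadjusted p under 0.05. The shares of genes with at least 10 counts in every library were 9.06% higher and 7.97% lower. That term reversed Ccr1 (-0.20), Ccl8 (-0.63), Cx3cl1 (0.23), Cxcl13 (-0.055), Vcam1 (0.033) and Ndst1 (0.016). limma-voom reversed Ccl24 (-0.0074).

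With each library left out in turn, edgeR called 0 to 139 genes higher (139 without Ctrl replicate 2) and 0 to 9 lower. The member median ranged from 0.48 to 0.72, the members higher at an unadjusted p under 0.05 from 6 (without KO replicate 3) to 11, and the members DESeq2 called higher from 0 to 4. With 1 KO library left, it is assumed to vary like the others. Members with KO wholly above Ctrl numbered 12 to 15, while the share over all genes was 21.9% to 27.8%, against 17.0% with every library. Signs changed for Cxcr4 (-0.70 to 0.15), Ackr1 (-0.47 to 1.19), Cxcl1 (-0.19 to 1.37), Ccl24 (-0.45 to 0.34), Cx3cl1 (-0.22 to 0.028) and Vcam1 (-0.69 to 0.24). DESeq2 and overlap counts without each library were added after the data were seen.

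The replicate numbers of the labels were not taken as pairs. Deviations of same-numbered libraries from their group means correlated at -0.0099 (replicate 2) and -0.19 (replicate 3). With the replicate block, edgeR called 3 genes higher and 2 lower, 0 of them members, and the member median was 0.50. Of 276 refits of single members, 251 kept their direction and side of the threshold, 14 became calls and 11 changed sign. The main fit called 0 members, so keeping the side of the threshold meant staying uncalled. The 14 calls came from DESeq2 (4) and edgeR with no low-count filter (10). Members under about 10 counts a library are limited by depth.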
